A study of Mus musculus with 8 samples.

Results

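Transcript levels of the genes of sterol and fatty acid synthesis that are driven by sterol regulatory element-binding proteins (SREBPs) were described in the dentate gyrus of mice lacking Derlin-1 or Derlin-2. The set held 34 genes, taken by gene symbol: 18 of the sterol arm, 8 of the fatty acid arm, and 8 regulators and carriers of sterols. Of these, 33 had a probe under their symbol and were measured, among 19922 genes measured in all. Acat2, an acetoacetyl-CoA thiolase, was not measured. The brightest probe of each gene was used, and the brightest probe of all 33 genes was well above background on all 8 arrays.

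Each array held RNA from the dentate gyrus, the region of the hippocampus in which new granule neurons are made in the adult, of male C57BL/6 mice aged 8 to 9 weeks. Derlin-1 control mice were Derlin-1flox/flox, and Derlin-1 KO mice carried the same floxed alleles together with Cre recombinase under the nestin promoter. Derlin-2 control mice were Derlin-2flox/flox, and Derlin-2 KO mice again carried the nestin-driven Cre in addition. Each of the 4 groups had 2 arrays, and the 2 lines were hybridised on different slides, so line and slide cannot be told apart. Nestin-driven Cre acts in neural progenitors and their progeny, so blood vessels and microglia keep the floxed genes, and no control group carried Cre alone. The labels do not say whether the 2 arrays of a group came from separate animals, and p-values measure the spread between these arrays only.

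Cells make cholesterol from acetyl-CoA by way of mevalonate, farnesyl diphosphate, squalene and lanosterol. SREBPs are made as membrane proteins of the endoplasmic reticulum (ER), where Derlin-1 and Derlin-2 also reside. The escort protein SCAP carries them to the Golgi when ER sterol is low, and INSIG proteins hold the complex back when sterol is plentiful. Once cleaved, the released factor enters the nucleus; SREBP-2, from Srebf2, acts mainly on sterol genes, and SREBP-1c, from Srebf1, mainly on fatty acid genes. In the adult brain, cholesterol is made locally, to a large part by glia, and the myelin of oligodendrocytes holds much of it.

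The upstream sequences were read because SREBPs act on them together with the factor NF-Y, whose core letters are CCAAT. RefSeq promoters (GRCm38.p6) were at hand for 26 of the 34 genes; Fdps, Fdft1, Sqle, Scd1, Scd2, Fads1, Stard4 and Abcg1 were not read. CCAAT was found on one strand or the other in the 250 bases before the start of 14 of 15 sterol arm genes. It was found in 1 of 5 fatty acid genes, in 4 of 6 regulators and carriers, and in 37.5% of the 27025 genes of the table. The classic sterol regulatory element, searched as TCACNCCAC on both strands, was found in 1 of the 26 genes, Hmgcs1, and in 1.22% of all genes. The matches to both motifs in Hmgcs1 do not overlap. Other forms of the element were not searched, so a gene without this match is not shown to lack one. These matches describe letters only.

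Stretches are shown for Hmgcs1, which held both motifs, for Cyp51 and Insig1, whose signals are described in full, and for Idi1, with 2 CCAAT matches near the start. Capitals mark matches to the searched form of the sterol regulatory element and to CCAAT or its reverse complement. The stretches are chr13:119690171-119690350 on the plus strand for Hmgcs1, chr5:4104698-4104817 on the minus strand for Cyp51, chr13:8885486-8885605 on the plus strand for Idi1 and chr5:28071162-28071281 on the plus strand for Insig1. All lie upstream of the annotated start and are written 5′ to 3′ along the gene.
Hmgcs1: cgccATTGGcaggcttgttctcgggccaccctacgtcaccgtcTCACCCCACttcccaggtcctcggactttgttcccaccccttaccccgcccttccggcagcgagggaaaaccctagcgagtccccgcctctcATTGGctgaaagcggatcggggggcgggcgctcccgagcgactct
Cyp51: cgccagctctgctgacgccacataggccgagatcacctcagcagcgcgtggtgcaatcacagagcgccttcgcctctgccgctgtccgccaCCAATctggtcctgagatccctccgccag
Idi1: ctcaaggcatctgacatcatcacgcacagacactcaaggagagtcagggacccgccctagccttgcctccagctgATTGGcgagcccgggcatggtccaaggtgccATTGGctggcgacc
Insig1: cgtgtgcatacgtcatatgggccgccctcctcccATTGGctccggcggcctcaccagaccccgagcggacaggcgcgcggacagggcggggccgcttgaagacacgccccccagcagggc
The sterol regulatory element of Hmgcs1 began 137 bases before the start. The CCAAT match of Cyp51 began 29 bases before the start, those of Idi1 45 and 14, and that of Insig1 216.

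Across the arrays, 67.6% to 70.8% of 56605 probes were well above background and 0 spots were saturated. Arrays of a group correlated at r = 0.987 to 0.995 over probes, and arrays of different lines at 0.966 to 0.985. All 5 granule neuron markers, Prox1 among them, were well above background on all arrays. The targeted genes were read on probes whose position relative to the deleted exons is not given in the sources used here. Derl2 was lower by 0.65 on the log2 scale in Derlin-2 KO arrays (adjusted p = 0.257 in limma), and its second probe by 1.05. Derl1 was lower by 0.20 in Derlin-1 KO arrays (adjusted p = 0.9999), while its second probe was 0.46 higher, so the array does not check the Derlin-1 labels. Values below are log2 signals after quantile normalization. They compare arrays for one probe and do not rank genes by abundance. A difference is KO minus control, and differences given for Derlin-1 and Derlin-2, in that order, compare the arrays of that line.

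In the sterol arm, 16 of 17 genes had a higher mean signal in KO than in control arrays when Derlin-1 was deleted, and 16 of 17 when Derlin-2 was deleted, by small amounts. The median log2 difference was 0.12 for Derlin-1 and 0.17 for Derlin-2, beside −0.02 and 0.01 over all genes. A total of 15 genes were higher in both lines. No sterol gene passed an adjusted p of 0.05: the count was 0 of 17 in each line, and at an unadjusted p under 0.05 in limma it was 1 for Derlin-1 and 2 for Derlin-2. These genes are known to be switched on together, so their counts are not independent observations.

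Over all 33 genes, 0 passed the adjusted threshold in either line or in the difference between the lines, nor did any of their 65 probes. Among all probes tested, the share called was 0% for Derlin-1, 0.0452% for Derlin-2 and 0.00754% for the difference. At an unadjusted p under 0.05, 2 genes were found for Derlin-1 (Fdps and Stard4) against 4.25% of all genes, 4 for Derlin-2 (Fdps, Cyp51, Insig1 and Stard4) against 4.64%, and 1 for the difference (Insig1) against 4.5%. With 2 arrays against 2, an exact permutation test of a single gene cannot go below a two-sided p of 0.333. The separation of the arrays was therefore counted as well. For 12 of 33 genes of the Derlin-1 line both KO values exceeded both control values, against 16.2% of all genes, and in the Derlin-2 line this held for 13 of 33, against 17.9%. Both KO values lay below both controls for 1 gene in the Derlin-1 line (17.9% of all genes) and for 3 genes in the other (14.6%). In both lines at once, 7 of 33 genes lay above (2.85% of all genes), and 23 of 33 had a higher mean (23.3%).

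**Figure D1:**
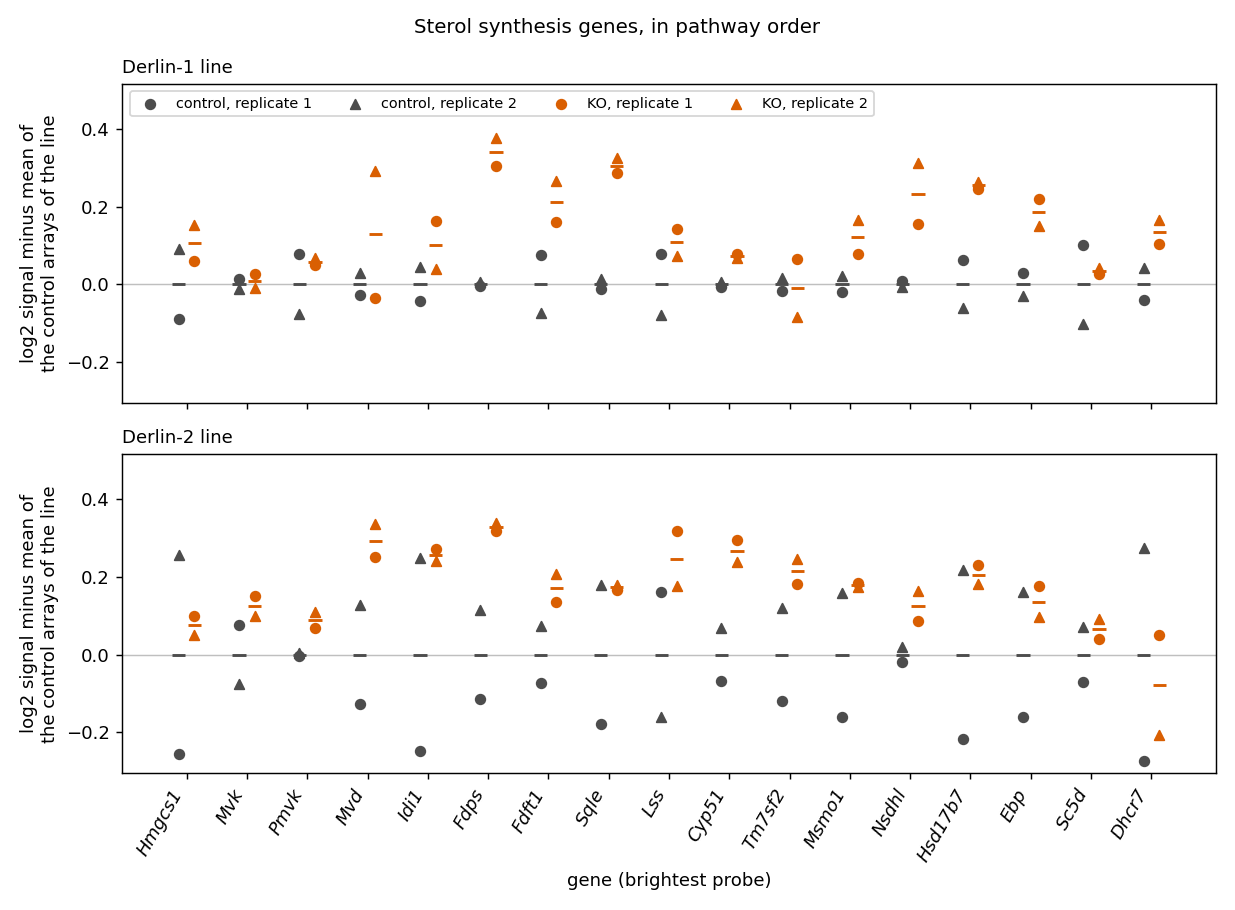
Log2 signal of the 17 sterol synthesis genes on each array, as the difference from the mean of the 2 control arrays of the line, in pathway order. Grey marks are control and orange marks KO arrays, circles replicate 1 and triangles replicate 2, and short bars group means; for Derlin-2 the control circle lies below the control triangle for 15 of 17 genes.

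Of the 6 measured steps to farnesyl diphosphate, Fdps, the synthase of farnesyl diphosphate, had the highest difference in both lines. Its probe, A_55_P1966804, read 13.16 and 13.17 on the Derlin-1 control arrays and 13.47 and 13.54 on the KO arrays. The Derlin-2 arrays gave 13.27 and 13.50 for control mice and 13.70 and 13.72 for KO mice. Both KO arrays were above both control arrays in each line. The difference was 0.34 ± 0.11 (SE, n = 2 and 2; 1.27-fold) for Derlin-1, with an unadjusted p of 0.0220 and an adjusted p of 0.9999 in limma. For Derlin-2 it was 0.33 ± 0.11 (1.26-fold), with an unadjusted p of 0.0255 and an adjusted p of 0.818. Without Derlin-2 control replicate 2 the Derlin-2 difference was 0.44, and without control replicate 1 it was 0.21.

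The 5 steps before it were higher by less. Hmgcs1, the cytosolic HMG-CoA synthase, differed by 0.11 and 0.08 in the Derlin-1 and Derlin-2 lines, and Mvk, mevalonate kinase, by 0.01 and 0.12. Pmvk, which adds the next phosphate, differed by 0.06 and 0.09. Mvd, the decarboxylase that yields isopentenyl diphosphate, differed by 0.13 and 0.29, and Idi1, its isomerase, by 0.10 and 0.26. For Derlin-2, Mvk, Pmvk and Mvd had both KO arrays above both controls, and Idi1 missed this by one array. None of the 5 did so for Derlin-1. Over the 6 genes the median difference was 0.10 for Derlin-1 and 0.19 for Derlin-2.

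The 11 steps from squalene to cholesterol had median differences of 0.13 and 0.17. Cyp51, the lanosterol demethylase whose upstream CCAAT is shown above, read 10.54 and 10.55 on the Derlin-1 control arrays and 10.62 and 10.61 on the KO arrays. The Derlin-2 arrays gave 10.51 and 10.65 for control mice and 10.88 and 10.82 for KO mice. The KO arrays were above the controls in each line, by 0.07 ± 0.10 (SE) for Derlin-1 and 0.27 ± 0.10 for Derlin-2. The unadjusted p was 0.483 and 0.0330, and the adjusted p 0.9999 and 0.854 in limma. The difference between the lines was −0.19 with a 95% interval of −0.53 to 0.14. A fainter Cyp51 probe differed by −0.24 and −0.02, against the direction of the brighter one.

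The other genes of these steps are given by whether their KO and control arrays overlapped. Fdft1, squalene synthase, was higher by 0.21 and 0.17, Msmo1, a methylsterol monooxygenase, by 0.12 and 0.18, and Nsdhl, a dehydrogenase that helps remove methyl groups from the sterol ring, by 0.23 and 0.13. Together with Fdps and Cyp51, these were the 5 sterol genes with both KO arrays above both controls in each line, on the brightest probe. A fainter Nsdhl probe differed by 0.38 and −0.005, with an unadjusted p of 0.00894 and an adjusted p of 0.9999 in limma for Derlin-1. Its Derlin-2 KO and control arrays overlapped. The second probes of Fdft1 (0.21 and 0.20) and Msmo1 (0.22 and 0.19) were higher in both lines. Sqle, the squalene epoxidase, differed by 0.31 and 0.17, Hsd17b7, a ketosterol reductase, by 0.25 and 0.21, Ebp, a sterol isomerase, by 0.19 and 0.14, and Dhcr7, the reductase that yields cholesterol, by 0.13 and −0.08. On the brightest probe these 4 separated for Derlin-1 and not for Derlin-2. Lss, lanosterol synthase, at 0.11 and 0.25, and Tm7sf2, a sterol reductase, at −0.01 and 0.21, separated for Derlin-2 and not for Derlin-1, on the brightest probe. Fainter probes overlapped for Derlin-2. They differed by −0.04 and 0.09 and by −0.08 and 0.07 for Lss, and by −0.04 and 0.07 for Tm7sf2. Sc5d, a sterol desaturase, differed by 0.03 and 0.07 and separated in neither. None of these differences between the lines passed the test.

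The Derlin-2 control arrays did not lie together in the sterol arm. Control replicate 2 was above control replicate 1 for 15 of 17 sterol genes, with a median difference of 0.24, whereas over all genes 50.7% were higher in replicate 2 and the median was 0.01. Sqle, for example, read 12.86 and 13.22 on the control arrays and 13.21 and 13.22 on the KO arrays. The Derlin-1 controls differed by a median of 0.01, with 9 of 17 genes higher in replicate 2. Without Derlin-2 control replicate 1 the median sterol difference in that line was 0.08, and without control replicate 2 it was 0.33. The number of sterol genes with the KO arrays above the remaining control was 10 and 17 of 17 in these cases, beside 40.7% and 39.7% of all genes with 1 control left, and 10 of 17 with both controls. The gap between these control arrays was thus larger than the KO difference of the line.

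**Figure D2:**
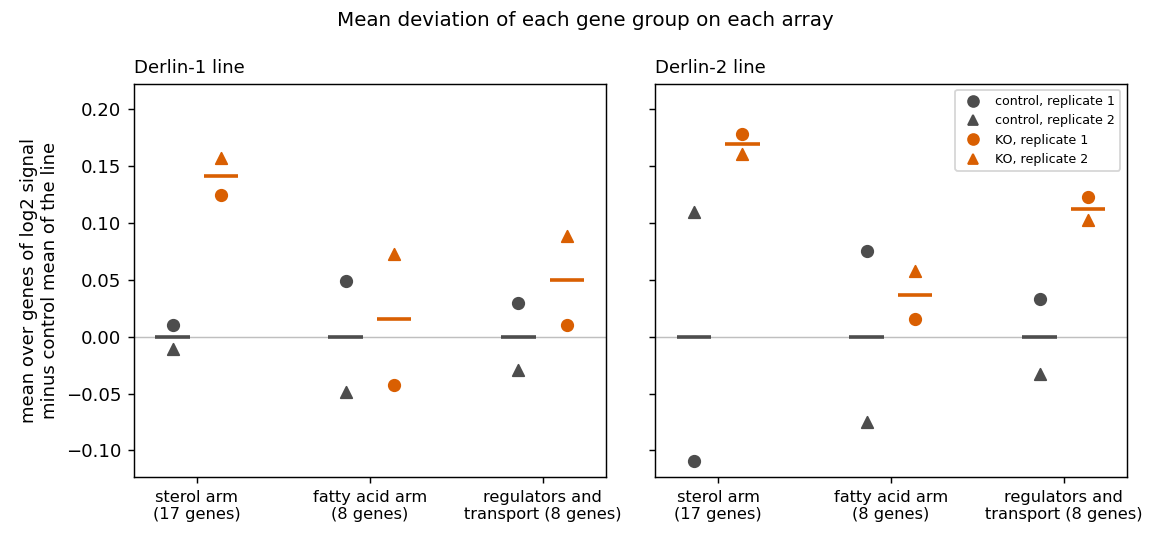
Mean over the genes of each group of the log2 signal minus the control mean of the line, per array (grey control, orange KO; circles replicate 1, triangles replicate 2; bars, group means). The Derlin-1 KO arrays sit at 0.12 and 0.16 in the sterol arm, the Derlin-2 KO arrays at 0.18 and 0.16, and the Derlin-2 control arrays at −0.11 and 0.11.

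In the fatty acid arm the arrays of KO and control mice overlapped for most genes. The median difference over 8 genes was 0.02 for Derlin-1 and 0.05 for Derlin-2, with 5 of 8 genes higher in each. The Derlin-1 median was −0.0722 without KO replicate 2 and 0.108 without KO replicate 1. None passed the adjusted threshold, and 0 had an unadjusted p under 0.05 in limma in either line. Acaca, acetyl-CoA carboxylase, which commits acetyl-CoA to fatty acids, differed by 0.10 and 0.10 and had both KO arrays above both controls in each line. Elovl6, an elongase of long saturated chains, differed by 0.21 and 0.08 and separated for Derlin-1. Fasn, the fatty acid synthase, differed by 0.07 and 0.17, within the spread of its controls, which read 15.40 and 15.05 for Derlin-1 and 15.30 and 14.79 for Derlin-2.

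Acly makes cytosolic acetyl-CoA from citrate and so feeds both arms. On its brightest probe it was lower by 0.16 and 0.10, and its KO arrays lay below both controls for Derlin-2. A fainter Acly probe was higher by 0.12 and 0.51, against that direction, and both its Derlin-2 KO arrays lay above both controls. The desaturases showed no common direction. Scd1 differed by 0.00 and 0.01, and Scd2, the main stearoyl-CoA desaturase of brain, by 0.03 and −0.06. For Derlin-2 the Scd2 KO arrays, at 16.012 and 15.911, lay just below the controls, at 16.031 and 16.016. That Scd2 difference was 0.002 after 75th percentile scaling and 0.004 with the deposited values. Fads1 and Fads2, which desaturate polyunsaturated fatty acids, differed by −0.13 and −0.03, and by −0.00 and 0.12. For Fads2 the 2 Derlin-1 control arrays, at 10.50 and 9.97, bracketed both KO arrays.

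**Figure D3:**
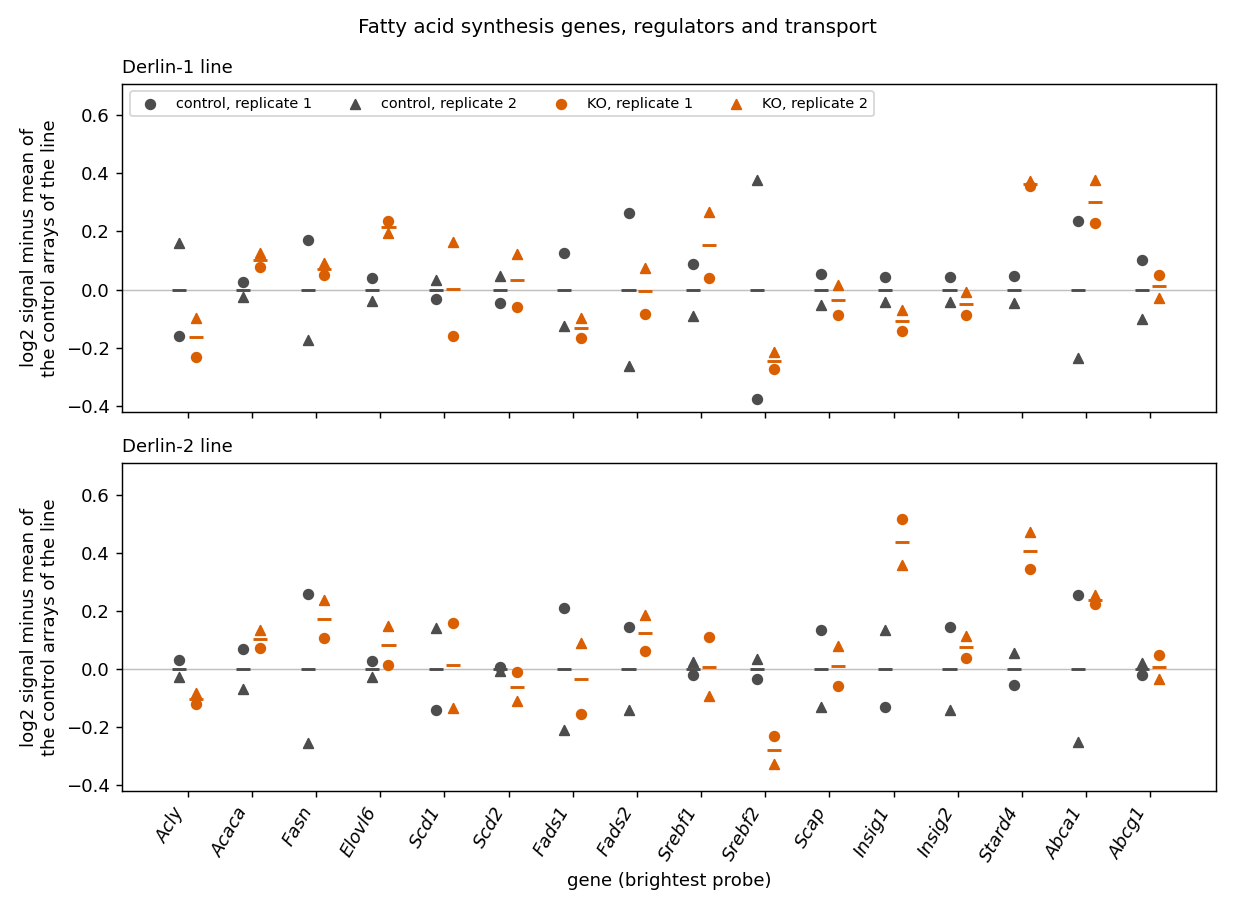
Log2 signal of the 8 fatty acid genes and the 8 regulators and carriers on each array, as the difference from the mean of the 2 control arrays of the line (grey control, orange KO; circles replicate 1, triangles replicate 2; bars, group means). Insig1 lies below its controls for Derlin-1 and above them for Derlin-2, and Stard4 lies above them in both.

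For the SREBP genes themselves, KO arrays did not lie above both controls in either line. Srebf1 read 11.83 and 11.65 on the Derlin-1 control arrays and 11.78 and 12.01 on the KO arrays. The Derlin-2 arrays gave 11.78 and 11.82 for control mice and 11.91 and 11.71 for KO mice. The groups overlapped in both lines, and the differences were 0.15 ± 0.13 and 0.01 ± 0.13 (SE), with unadjusted p-values in limma of 0.299 and 0.956.

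Srebf2 read 13.77 and 14.53 on the Derlin-1 control arrays and 13.88 and 13.94 on the KO arrays. The Derlin-2 arrays gave 15.14 and 15.21 for control mice and 14.95 and 14.85 for KO mice. The KO arrays lay between the controls for Derlin-1 and below them for Derlin-2. The differences were −0.24 ± 0.24 and −0.28 ± 0.24 (SE), with unadjusted p-values in limma of 0.340 and 0.281. Without Derlin-1 control replicate 2 the Derlin-1 difference was 0.13. A fainter Srebf2 probe differed by 0.02 and 0.00.

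Scap, the escort of SREBPs, read 13.67 and 13.56 on the Derlin-1 control arrays, 13.53 and 13.63 on the KO arrays, 13.62 and 13.35 on the Derlin-2 control arrays and 13.42 and 13.56 on the KO arrays. Insig2, a retention protein, read 12.62 and 12.54, then 12.49 and 12.57, then 12.38 and 12.10, then 12.28 and 12.35 on the arrays in that order. KO and control arrays overlapped for both genes in both lines. The differences were −0.04 ± 0.13 and 0.01 ± 0.13 for Scap and −0.05 ± 0.13 and 0.08 ± 0.13 for Insig2 (SE).

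Insig1, the retention protein that is itself a target of SREBPs, lay on opposite sides of its controls in the 2 lines. Its probe, A_51_P290207, read 7.50 and 7.42 on the Derlin-1 control arrays and 7.32 and 7.39 on the KO arrays, so both KO arrays were below both controls. The Derlin-2 arrays gave 7.09 and 7.36 for control mice and 7.74 and 7.58 for KO mice, so both were above. The difference was −0.11 ± 0.13 (SE) for Derlin-1, with an unadjusted p of 0.439 (−0.0293 in the deposited values and −0.0185 by 75th percentile scaling), and 0.44 ± 0.13 (1.35-fold) for Derlin-2, with an unadjusted p of 0.0143 and an adjusted p of 0.719 in limma. The difference between the lines was −0.54, with a 95% interval of −0.99 to −0.10, an unadjusted p of 0.0241 and an adjusted p of 0.795 in limma, so it did not pass the threshold over all probes. It was the only one of the 33 genes whose arrays separated in opposite directions. Of all genes, 17.9% lay below both controls for Derlin-1 and 17.9% above both for Derlin-2. The share of all genes that did both was not counted, so this gene is not shown to be unusual.

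Stard4, a soluble carrier that moves sterols between membranes and a target of SREBP-2, had the lowest p-value in both lines among the brightest probes of the set. Its probe, A_52_P384574, read 9.71 and 9.61 on the Derlin-1 control arrays and 10.02 and 10.03 on the KO arrays. The Derlin-2 arrays gave 10.02 and 10.13 for control mice and 10.42 and 10.55 for KO mice. All KO arrays were above the controls of their line. The differences were 0.36 ± 0.10 (SE; 1.29-fold) and 0.41 ± 0.10 (1.33-fold), with unadjusted p-values of 0.0124 and 0.00767 and adjusted p-values of 0.9999 and 0.601 in limma. The brighter probe thus did not pass the threshold, and a fainter Stard4 probe differed by −0.19 for Derlin-1 and 0.60 for Derlin-2.

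The efflux transporters Abca1 and Abcg1, which answer to liver X receptors, were read beside them. Abca1 differed by 0.30 ± 0.22 and 0.24 ± 0.22 (SE), but its controls read 10.01 and 9.54 for Derlin-1 and 10.01 and 9.51 for Derlin-2, and one control array in each line reached the level of the KO arrays. Abcg1 differed by 0.01 and 0.00. Over the 8 regulators and carriers the median difference was −0.01 and 0.04.

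**Figure D4:**
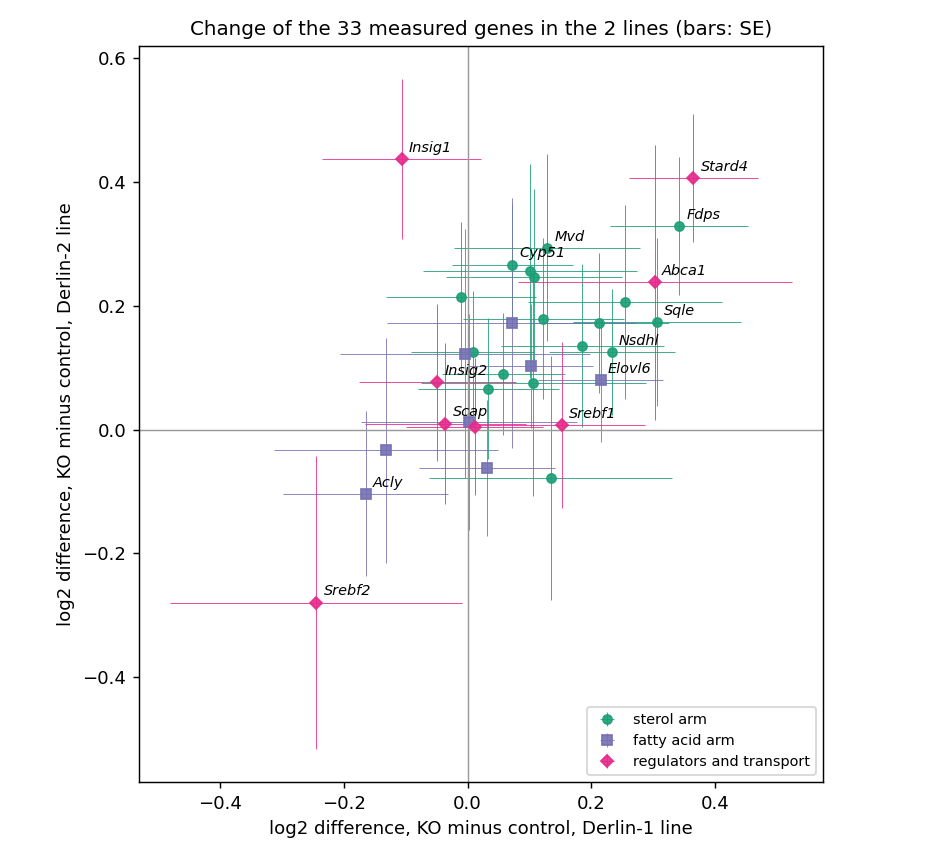
Log2 difference between KO and control of the 33 genes in the lines of Derlin-1 (horizontal) and Derlin-2 (vertical), with SE bars from limma. Green circles are the sterol arm, violet squares the fatty acid arm and pink diamonds the regulators and carriers; 23 of 33 genes lie to the upper right of zero, and Insig1 lies in the upper left.

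Side by side, the differences of the 33 genes in the 2 lines, which share no control arrays, correlated at r = 0.55 across genes (Spearman's rho 0.48), and those of the 17 sterol genes at 0.24 (rho 0.20). Genes are not independent replicates, and the plot of one line against the other shows standard errors from 0.10 to 0.24. Of the 20 genes with several probes, 11 had a second probe of the same sign as the brightest in the comparison of Derlin-1, and 16 did so in that of Derlin-2.

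Other genes of these pathways were read in the same way. Of 20 further genes of isoprenoid, fatty acid and sterol handling, 19 were measured, among them Mbtps1 and Mbtps2, the proteases that cleave SREBPs. Their median differences were 0.04 and 0.02, 12 and 10 were higher, and 0 had an unadjusted p under 0.05 or an adjusted p under 0.05 in limma in either line. In the comparison of Derlin-1, 6 of the 19 had both KO arrays above both controls and 2 below, beside 16.2% and 17.9% of all genes. In that of Derlin-2 these numbers were 0 and 4, beside 17.9% and 14.6% of all genes.

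Marker genes of the cell types of the tissue were read beside the sterol arm, since fewer cells of a type and less RNA per cell cannot be told apart in bulk tissue. All markers of the 9 lists were measured and well above background on all arrays. The summed signal of 8 oligodendrocyte markers ran from 168815 to 195522 in Derlin-1 controls and from 199689 to 213367 in KO, while 3 of 8 genes were higher and the median log2 difference was −0.02. For Derlin-2 it ran from 130084 to 168927 in controls and from 159084 to 168977 in KO, with 6 of 8 genes higher and a median of 0.08. Derlin-2 control replicate 1, the array with the lower sterol signals, had the higher oligodendrocyte sum of the pair. The summed signal of the 4 choroid plexus markers ran the same way as the sterol signals in these controls, at 1780 on replicate 1 and 4106 on replicate 2, with a median log2 difference of 0.61. In KO it was 4485 and 1923. By gene, the log2 signals of control replicates 1 and 2 were 9.52 and 11.45 for Ttr and 6.94 and 7.94 for Folr1. They were 9.76 and 9.98 for Kl, and 5.68 and 5.60 for Aqp1, which ran the other way. For the other 8 lists the median difference between these controls ran from −0.24 to 0.06. The 6 astrocyte markers summed to 51785 to 56211 and 51878 to 52925 in Derlin-1 controls and KO, with 2 higher, and to 49222 to 50946 and 43909 to 46692 for Derlin-2, with 3 higher. Microglial markers were lower in Derlin-1 KO arrays (0 of 6 higher; sums of 27792 to 28464 in controls and 24214 to 25442 in KO), and newborn neuron markers were higher in Derlin-2 KO arrays (5 of 5 higher; 6147 to 7287 in controls and 8119 to 8179 in KO). The other 5 lists (oligodendrocyte precursors, granule neurons, CA pyramidal neurons, endothelium and choroid plexus) had median differences from −0.01 to 0.33 for Derlin-1 and from −0.04 to 0.08 for Derlin-2. The highest for Derlin-1 were choroid plexus (0.33, 3 of 4 higher) and CA pyramidal neurons (0.28, 4 of 4 higher). Choroid plexus sums were 1303 to 1447 in controls and 1467 to 1540 in KO. The CA pyramidal sums overlapped, at 3918 to 6219 and 4969 to 6771. No marker of these lists passed the adjusted threshold. Their part in the sterol differences was not tested.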

How the data were processed

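Total RNA of the dentate gyrus was labelled with Cy3 and hybridised to 1-colour Agilent mouse arrays (8 arrays, 4 groups of 2, grouped by sample title, since the genotype label of KO mice names only the floxed alleles). The authors deposited scanner files from Agilent Feature Extraction 10.7.1.1, whose intensity values are background-subtracted and detrended per the file headers. The deposited tables hold log2 values centred on each probe's median over an experiment that included other arrays. The authors describe quantile normalization. Within a line, however, the deposited differences departed from those after 75th percentile scaling by about the same amount for each gene compared. For Derlin-1 they were 0.316 and 0.326 for Fdps, and 0.130 and 0.141 for Hmgcs1. The deposited values thus acted as a scaling of whole arrays. They were used as an alternative, but not one independent of 75th percentile scaling. The tables also gave the gene symbols and hold the authors' fold changes, which were not used.

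Outlier and control spots were left out, intensities under 1 were set to 1, log2 values were quantile-normalized across the 8 arrays, and spots of a probe were averaged. Probes well above background on both arrays of at least 1 group were kept (40001). Group means were compared with limma 3.58.1 in R 4.3.3, two-sided, with Benjamini-Hochberg adjustment over all probes tested (threshold 0.05); 95% intervals come from the same fit. The number of arrays limits the precision. Srebf1, Srebf2, Scap, Insig1, Insig2 and genes with an unadjusted p under 0.05 are given on every array. The test was checked on simulated data. The planned normexp correction used the median spot signal, as the mean was not among the columns. Members, lists and tests were chosen with earlier results of these data known.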

Additional observations from a re-analysis of the deposited data

Results flagged for a closer look

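Insig1 was the only one of the 33 genes with both KO arrays below both controls in one line (Derlin-1) and above both in the other (Derlin-2). Of all genes, 17.9% lay below for Derlin-1 and 17.9% above for Derlin-2, and the share that did both was not counted. The Derlin-1 difference minus the Derlin-2 difference was −0.54 on the log2 scale, with an adjusted p of 0.795 in limma, and over the alternatives it ran from −0.68 to −0.41. The Derlin-1 difference alone was −0.11, and −0.0293 in the deposited values and −0.0185 by 75th percentile scaling. Insig1 was read on 1 probe, in row 372 of 384 of the array.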

How the results depend on the processing

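Probes called over the whole array numbered 0 for Derlin-1, 18 for Derlin-2 and 3 for the difference between the lines, and 0 of them belonged to the 33 genes. The Derlin-2 count was 2 with normexp and with probes well above background on all 8 arrays, 4 without the last eighth of the array rows, 29 without the filter on dim probes, and 0 with the 4 arrays of the line alone. The count for the difference was 5 after scaling to the 75th percentile and 0 with normexp, without the last rows, without the filter and with probes well above background on all 8 arrays. By a difference of at least 1.5-fold with no test, 1856, 2263 and 4740 probes passed. Leaving out 1 array at a time gave 0 to 1, 4 to 55 and 0 to 21 probes, highest without Derlin-1 control replicate 2 and Derlin-2 control replicate 1.

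Replicate numbers were shared between groups, but same-numbered arrays of a line deviated together with r = 0.27 for Derlin-1 and −0.10 for Derlin-2, so the numbers do not establish pairs. With the replicate block the counts were 0, 0 and 0, and no call among the 33 genes changed.

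The median sterol difference for Derlin-1 was 0.15 after scaling to the 75th percentile, and 0.10 to 0.15 when 1 array was left out; for Derlin-2 it was 0.0848 to 0.333 when 1 array was left out. The fatty acid median for Derlin-1 ran from −0.0722 to 0.108 when 1 array was left out, changing sign. That for Derlin-2 was 0.11 with the mean of all probes of a gene, and −0.0448 to 0.140 when 1 array was left out. That of the regulators and carriers for Derlin-2 was 0.0800 after scaling to the 75th percentile, 0.0817 with the deposited values and 0.00986 without the last rows, where Insig1 lies, and 0.00489 to 0.181 when 1 array was left out; for Derlin-1 it was −0.0238 to 0.0642. Genes with the KO arrays above the remaining control arrays then numbered 12 to 21 and 13 to 21 of 33, and in the sterol arm 9 to 13 and 10 to 17 of 17; with an array of the line itself left out, the share of all genes was 25.6% to 38.3% and 30.3% to 40.7%. All of these medians of the sterol arm stayed above 0.

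Srebf1 and Scap changed sign within small differences: Srebf1 for Derlin-2 ran from −0.0925 to 0.108 when 1 array was left out, and Scap from −0.0880 to 0.0161 for Derlin-1 and from −0.123 to 0.143 for Derlin-2, where it was −0.00841 with normexp. Insig2 for Derlin-2 ran from −0.0668 to 0.219 and Srebf2 for Derlin-1 from −0.62 to 0.13. The causes were not tested.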
